A study of Homo sapiens with 10 samples.

Results

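BCR and ABL1 are the genes joined in the BCR-ABL fusion of chronic myeloid leukaemia (CML), and the signals of both, of the ABL1 relative ABL2 and of the adaptors and regulators that bind the fusion kinase were compared between a CML cell line and a cyclophosphamide-resistant subline of it. The members were all probe sets of the deposited table that the platform annotation assigned to BCR, ABL1, ABL2, CRKL, CRK, GRB2, SHC1, CBL, SOS1 or INPP5D. These were 23 of 12558 probe sets and covered 9 of the 10 genes, since no probe set was named CRK. Of the probe sets with several gene symbols, 0 held a member. BCR and ABL1 had 6 probe sets each, CRKL had 3, GRB2 and SOS1 had 2 each, and ABL2, SHC1, CBL and INPP5D had 1 each.

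RNA of 10 samples was measured, each on a 1-colour Affymetrix oligonucleotide array of its own. The sensitive group was the CML line, with 5 arrays, and the resistant group its subline that withstands cyclophosphamide, an alkylating drug, with 5 arrays. Both were cells in tissue culture medium. The labels give neither the name of the line, nor whether the subline is 1 clone, nor how resistance was raised, nor whether the drug was present at harvest. Nothing in them says that the 5 arrays of a group stand for separate cultures, and every p-value therefore measures the spread between arrays only, part of which may be technical. In bulk RNA, fewer cells with a transcript and less of it per cell cannot be told apart. The study asked, among other things, about BCR-ABL expression in the resistant cells.

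The fusion places the promoter and front part of BCR before the kinase part of ABL1, and the product is a tyrosine kinase that is always active and drives the leukaemia. A phosphorylated tyrosine in its BCR part binds the adaptor GRB2, which brings the RAS exchange factor SOS1, and SHC1 gives a further way to GRB2. CRKL and CRK bind a proline-rich part of ABL1, and phosphorylated CRKL is the usual readout of the kinase in CML cells. CBL, a ubiquitin ligase that is also bound and phosphorylated, and INPP5D, the lipid phosphatase SHIP1 of blood cells, which removes a phosphate from the PI3K product, act mostly as brakes. The arrays measure RNA of these genes, not protein or phosphorylation.

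The promoters of BCR, ABL1 and INPP5D are shown. BCR's promoter is the one that drives the fusion gene, and the other windows were picked because signals of ABL1 and INPP5D were higher in resistant cells. Each sequence is the RefSeq stretch of 250 bases just before the start of the gene or transcript on the plus strand of GRCh38.p14, 5′ to 3′. They lie at chr22:23180259-23180508 for BCR, at chr9:130835004-130835253 for ABL1 and at chr2:233060092-233060341 for INPP5D. The ABL1 window belongs to a start inside the gene as RefSeq draws it, so it does not show the gene's outermost start. Capitals mark motifs searched on both strands. The GC box was searched as GGGCGG and the CCAAT box by its name. The TATA box was searched as TATAAA, the core of many ETS sites as AGGAAG, and the GATA site as AGATAA.
BCR: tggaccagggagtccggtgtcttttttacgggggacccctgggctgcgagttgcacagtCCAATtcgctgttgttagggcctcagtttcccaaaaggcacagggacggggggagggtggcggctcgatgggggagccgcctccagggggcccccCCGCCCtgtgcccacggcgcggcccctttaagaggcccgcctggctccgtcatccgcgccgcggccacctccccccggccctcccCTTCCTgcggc
ABL1: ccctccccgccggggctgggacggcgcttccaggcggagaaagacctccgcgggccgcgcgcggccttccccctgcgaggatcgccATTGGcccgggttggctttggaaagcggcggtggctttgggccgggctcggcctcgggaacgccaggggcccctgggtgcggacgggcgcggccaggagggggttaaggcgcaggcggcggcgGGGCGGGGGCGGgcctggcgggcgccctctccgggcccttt
INPP5D: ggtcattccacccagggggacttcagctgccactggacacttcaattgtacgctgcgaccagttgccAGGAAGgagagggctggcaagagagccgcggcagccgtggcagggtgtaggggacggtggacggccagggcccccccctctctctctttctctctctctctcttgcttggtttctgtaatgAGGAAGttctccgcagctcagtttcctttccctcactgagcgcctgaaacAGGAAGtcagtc

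The windows differed in these letters. ABL1 held 2 GC boxes, which do not overlap, and 1 CCAAT box, and its GC content was 78.4%. BCR held 1 GC box, 1 CCAAT box and 1 ETS core at a GC content of 70.8%. INPP5D held 3 ETS cores, none of the other motifs, and had a GC content of 59.2%. Of 35116 RefSeq windows of this length, 42.6% held a GC box, 32.0% CCAAT, 28.7% the ETS core, 10.7% the TATA box and 9.17% the GATA site, and the median GC content was 58.0%. Windows of members without a call held such motifs too. GRB2 held 3 GC boxes at a GC content of 71.6%, and CRKL 1 CCAAT box and 1 ETS core at 74.4%. A match of letters is a description and not a binding site, and a link of the motifs to the signals was not tested.

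The values are MAS5 signals, a linear intensity that summarises the probes of a probe set on an array. A limit was set on each array at the 95th percentile of 23 control probe sets without a human target, and it lay between 255.4 and 691.3. The share of probe sets above it was 59.2% ± 4.33 (SD, n = 5) for the sensitive group and 58.5% ± 6.53 (SD, n = 5) for the resistant one (exact permutation p = 0.849), and the 3′ to 5′ GAPDH ratio was 0.876 ± 0.0373 and 0.847 ± 0.0714 (exact permutation p = 0.437). Of 5 measured blood cell markers, PTPRC (CD45) and SPN were above the limit on all 10 arrays, while CD34 was above it on 9 and MPO on 3, and CD38 rose from a mean of 75.1 to 758 (limma adjusted p = 9.30e-05). Lists of other cell types were mixed. The T cell markers CD3D and CD3G were above it on 0 arrays, CD2 and CD5 on 1 each and CD3E on 8, and the B cell markers CD79B and MS4A1 on 0 and CD79A on 4. The epithelial markers KRT18 and EPCAM were above it on 0, KRT19 on 1, CDH1 on 7 and KRT8 on all 10, and the fibroblast markers COL1A2 and COL3A1 on 0, COL1A1 on 2 and LUM on 6. The summed fibroblast list was 1104 to 2850 in sensitive and 431.6 to 1027 in resistant arrays, where LUM fell from a mean of 1302 to 237 (limma adjusted p = 0.00317). The part of these markers in the results below was not tested.

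A difference is the mean log2(signal + 114.8) of resistant minus that of sensitive arrays, tested with limma over all 12558 probe sets and called at a Benjamini-Hochberg adjusted p under 0.05. Folds come from this scale, which understates changes of dim probe sets. Called were 4 of the 23 probe sets (17.4%), namely 3 of ABL1 and the 1 of INPP5D, all with a higher signal in resistant cells, where 7.41% of all probe sets were called, 4.42% of them as higher. None was called lower by limma (2.99% of all were), and 5 reached an unadjusted p under 0.05, all of them higher. The groups did not overlap in 4 member probe sets, 3 of ABL1 and the 1 of INPP5D, against 8.5% of all probe sets (4.94% with resistant arrays higher and 3.56% with them lower). The 3 ABL1 probe sets are not the same in both counts. Both hold 1635_at and 1636_g_at, while 2040_s_at was called with overlap and 39730_at was without overlap and not called. In each count they are repeated readings of 1 gene, so neither is a count of separate genes. Read by its brightest probe set, 39730_at, ABL1 was not called (limma adjusted p = 0.0738). The median difference was 0.16 over the members and 0.03 over all probe sets, while the median size of the difference without its sign was 0.18 and 0.27. The calls were weak: when the arrays were scaled by their medians instead, limma called 0 of the 23, although the 4 differences stayed positive at 0.58 to 0.99.

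**Figure D1:**
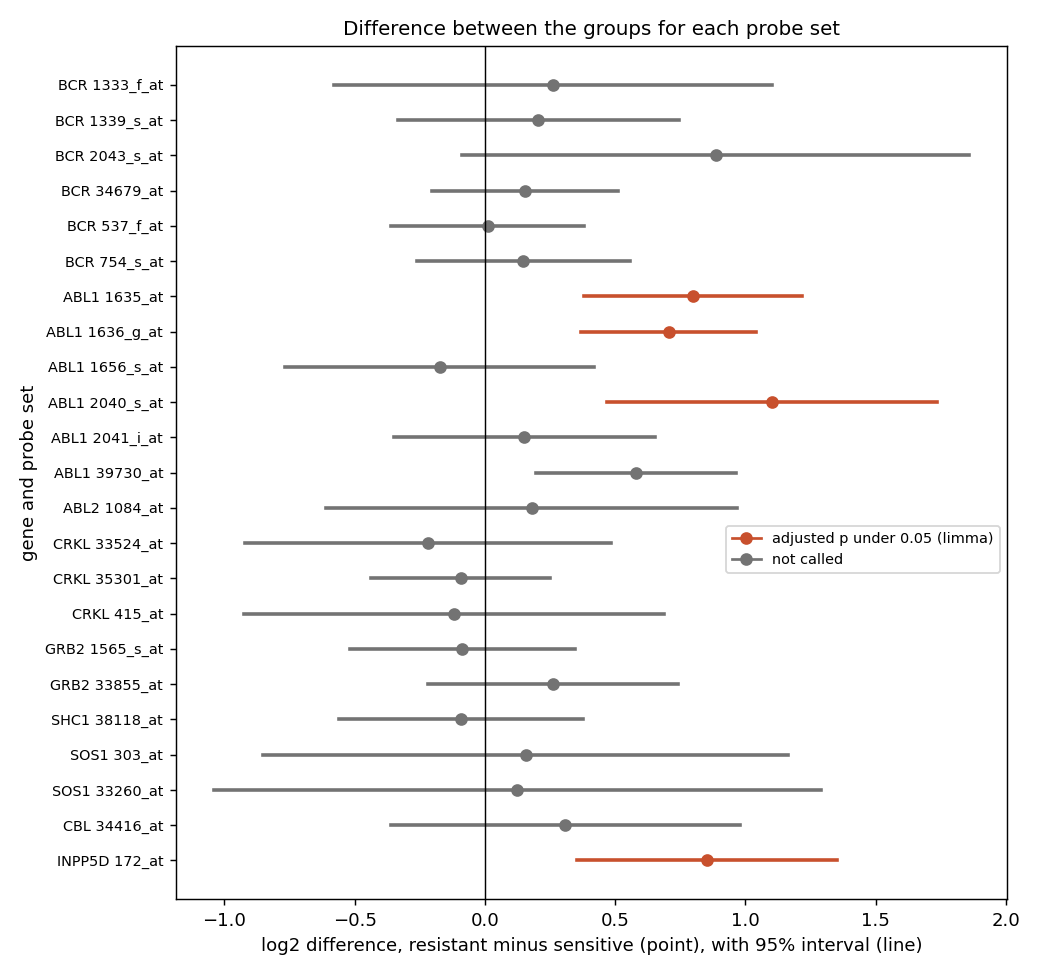
Log2 difference between resistant and sensitive arrays (horizontal axis) for each of the 23 probe sets, with its 95% interval from limma. The intervals of 4 ABL1 probe sets and of INPP5D lie wholly above 0, and the other 18 include 0.

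ABL1 encodes the partner that gives the fusion its kinase part. A signal of ABL1 or BCR may come from the normal gene, from the fusion transcript or from both, which could not be told apart here. The ABL1 signal was 1.49 to 1.74 times as high in resistant cells by 3 of its 6 probe sets, 2 of them called. A dimmer probe set was called higher too, and the other 2 were not called. For probe set 1636_g_at the sensitive arrays read 7269, 6834, 8513, 6644 and 7501, and the resistant arrays 11750, 13311, 12033, 11717 and 11379. The lowest resistant array thus lay above the highest sensitive one. The difference was 0.71 (SE 0.15), or 1.63-fold with a 95% interval of 1.29 to 2.06 (limma adjusted p = 0.014). This was also the ABL1 probe set with the smallest spread, with coefficients of variation of 9.96% and 6.22%, and it stayed called without any 1 of the 10 arrays. The call was lost with the median scaling (difference 0.58, adjusted p = 0.0988, limma). It was also lost with the replicate number as a block in the model (adjusted p = 0.0542, limma). By its ending, the probes of 1636_g_at may be shared with other transcripts, so its fold and interval may not be those of ABL1 alone.

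Probe set 1635_at gave 3170, 3366, 2422, 2160 and 2980 in sensitive arrays and 5669, 6052, 4562, 4134 and 4460 in resistant arrays. The groups again did not overlap, and the difference was 0.80 (SE 0.19), or 1.74-fold (interval 1.30 to 2.32; limma adjusted p = 0.0239). Its call was lost without any 1 of 4 arrays, at adjusted p-values of up to 0.0667. For 39730_at the sensitive arrays read 8412, 8473, 9958, 6378 and 10060 and the resistant arrays 13657, 13015, 13473, 12660 and 11474. These groups did not overlap either, yet the difference of 0.58 (1.49-fold, interval 1.15 to 1.95) was not called over all probe sets (limma adjusted p = 0.0738). In each of these 3 probe sets the two-sided exact permutation p was 0.00794, the smallest that 5 arrays against 5 allow, before any adjustment.

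The other 3 ABL1 probe sets were dimmer, and they did not move together. For 2040_s_at the sensitive arrays read 716, 215, 212, 489 and 413, with 2 of them above the limit, and the resistant arrays 603, 1251, 1068, 833 and 1071, all above it. Only sensitive replicate 1 reached into the resistant range. The difference was 1.10 (limma adjusted p = 0.0382), with no fold given since most sensitive arrays were not well above background, and the call was lost without any 1 of 7 arrays, at adjusted p-values of up to 0.0995. For 1656_s_at the means were 823 ± 243 and 742 ± 329 (SD, n = 5 each), a difference of -0.17 with an interval of -0.77 to 0.42. For 2041_i_at they were 1607 ± 408 and 1796 ± 450, a difference of 0.15 with an interval of -0.35 to 0.65. The groups overlapped widely in both. Affymetrix gives the endings _s_at and _g_at to probe sets whose probes are shared between transcripts and _i_at to incomplete ones, and which exons each covers was not known here. Whether the 6 differences differ from each other was not tested.

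BCR encodes the other partner, a protein with an oligomerising front part and a GTPase-activating part, and none of its 6 probe sets was called by limma, with 0 at an unadjusted p under 0.05 and a lowest exact permutation p of 0.159. With 7.41% of all probe sets called, a count of 0 among 6 is near the background and is no result about BCR. Of these, 3 were above the limit on all 10 arrays, and they set the closest bounds. For 34679_at the sensitive arrays read 2131, 1758, 2312, 2345 and 2310 and the resistant arrays 2228, 2424, 2725, 2634 and 2116. Both groups shared most of their range, and the difference was 0.15 (SE 0.16), 1.11-fold with an interval of 0.868 to 1.42. For 754_s_at the difference was 0.15, with means of 1736 ± 367 and 1913 ± 239 and a fold interval of 0.834 to 1.47. For 537_f_at it was 0.01, with means of 1067 ± 164 and 1072 ± 118 and a fold interval of 0.780 to 1.30. Its sign turned with arrays scaled to a common median and with quantile normalization. The intervals therefore allow a rise of up to 1.30 to 1.47-fold in the signals of these probe sets and do not show that BCR stayed level. The probes of 754_s_at and 537_f_at may also match other transcripts, so their intervals are not bounds on BCR alone. Only 34679_at, with a rise of up to 1.42-fold allowed, has no such ending.

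The other BCR probe sets lay near the limit. For 2043_s_at all 5 sensitive arrays were not well above background, at 88.0, 143, 158, 194 and 233. The resistant arrays split, with 827, 700 and 777 in replicates 2, 3 and 5, above the limit, and 76.5 and 138 in replicates 1 and 4, below it. No fold is given, since the resistant mean did not pass the bound that the limit sets, and the probe set was not called (limma adjusted p = 0.334). For 1339_s_at the means were 525 ± 163 and 631 ± 227, and for 1333_f_at 606 ± 407 and 667 ± 218. The endings _f_at and _s_at mark probe sets whose probes match a family of sequences or several transcripts, and the genome holds BCR-like copies, so 5 of the 6 BCR probe sets may include other transcripts.

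**Figure D2:**
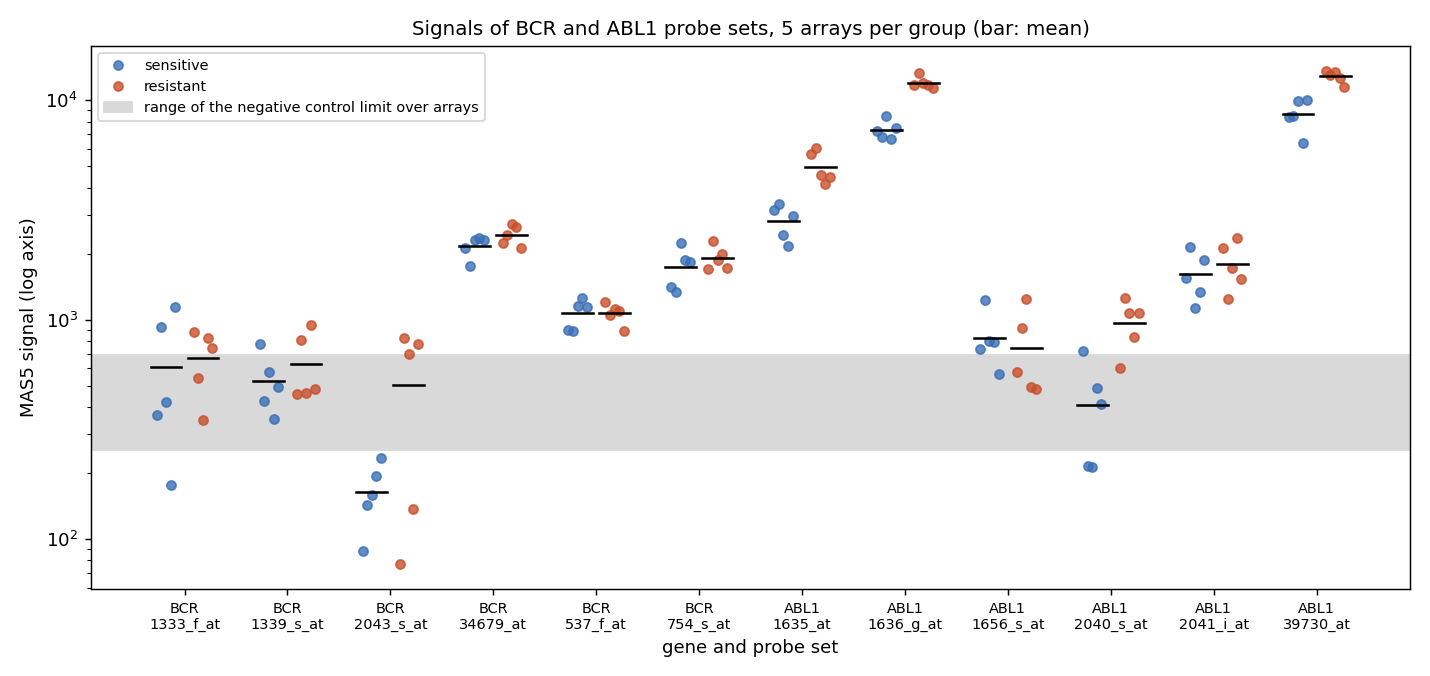
MAS5 signal on a log axis for the 12 probe sets of BCR and ABL1, with a point for each array, a bar for each group mean and a grey band for the range of the negative control limit, 255.4 to 691.3. The groups separate in ABL1 1635_at, 1636_g_at and 39730_at and in no BCR probe set.

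ABL2, the closest relative of ABL1 and a kinase that the same inhibitors bind, was not well above background on any array. Its signals ran from 65.5 to 344 in sensitive and from 50.5 to 355 in resistant arrays, so no change of it could be measured.

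CRKL, the adaptor most closely tied to the fusion kinase, had 3 probe sets without a call, and all 3 differences were slightly negative. For 35301_at the sensitive arrays read 10830, 9337, 8896, 8430 and 9297 and the resistant arrays 8680, 9267, 7850, 8183 and 9840. The groups overlapped, and the difference was -0.09 (SE 0.16; limma adjusted p = 0.843), 0.937-fold with an interval of 0.739 to 1.19. This interval is among the narrowest of the members and leaves room for a rise of no more than 1.19-fold. The other 2 probe sets varied more from array to array. For 33524_at the arrays ran from 986 to 2269 in the sensitive and from 817 to 2690 in the resistant group (difference -0.22, interval -0.92 to 0.48), and for 415_at from 793 to 1961 and from 385 to 2162 (difference -0.12, interval -0.93 to 0.69). CRK, which resembles CRKL in its SH2 and SH3 domains, was not analysed here.

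GRB2, which links the fusion kinase to RAS, had differences of opposite sign in its 2 probe sets, neither of them called. For 1565_s_at the sensitive arrays read 8261, 8260, 10812, 7026 and 6784 and the resistant arrays 5789, 9561, 8262, 7996 and 7077, a difference of -0.09 (interval -0.52 to 0.34). For 33855_at they read 6846, 6846, 6932, 5160 and 4069 against 4939, 9032, 7373, 7168 and 7280, a difference of 0.26 (interval -0.22 to 0.74). In both probe sets resistant replicate 1 was the lowest resistant array and resistant replicate 2 the highest. SHC1, an adaptor that recruits GRB2, was 5249 ± 1105 in sensitive and 4934 ± 1149 in resistant arrays (difference -0.09, interval -0.56 to 0.37; limma adjusted p = 0.892). Its arrays ran from 4095 to 6828 and from 3833 to 6491.

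SOS1, which loads RAS with GTP, varied more among arrays of 1 group than between groups. For 33260_at the sensitive arrays read 817, 962, 2881, 1775 and 1644 and the resistant arrays 791, 1349, 7499, 1064 and 1174. For 303_at they read 553, 359, 1794, 997 and 807 against 454, 922, 2681, 943 and 496. In both probe sets and both groups the array numbered 3 was the highest. The differences were 0.12 (interval -1.04 to 1.29) and 0.16 (interval -0.85 to 1.16), and without resistant replicate 3 they were -0.41 and -0.21, so these data bound SOS1 only loosely. The 2 CRKL probe sets 33524_at and 415_at were also highest on the arrays numbered 3, at 2269 and 2690 and at 1961 and 2162. The brighter CRKL probe set 35301_at was not, being highest on sensitive replicate 1 (10830) and resistant replicate 5 (9840).

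Sensitive replicate 3 was the highest sensitive array in 11 of the 23 member probe sets and in 30.1% of all probe sets, and resistant replicates 3 and 2 the highest resistant array in 7 each and in 21.1% and 14.8%. The negative control limit was 626.7 and 597.4 on the arrays numbered 3 and 691.3 on resistant replicate 4. The part of the arrays and of their limits in the SOS1 and CRKL signals was not tested.

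**Figure D3:**
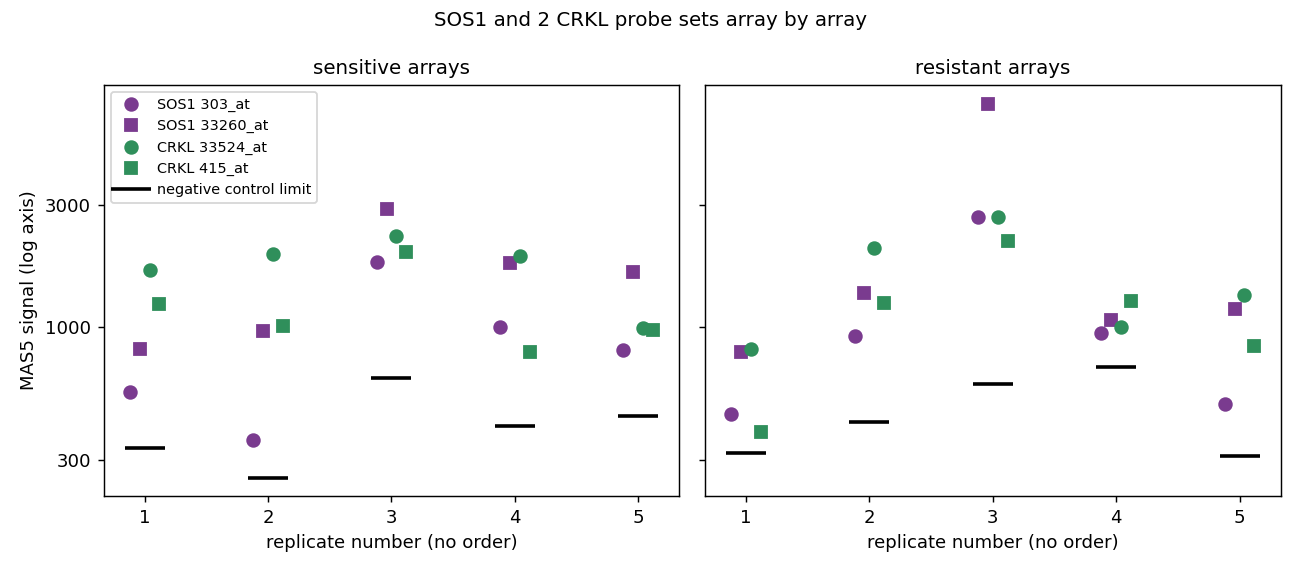
MAS5 signal on a log axis of the SOS1 and the 2 more variable CRKL probe sets on each array, by replicate number, with the array's negative control limit as a bar. The 4 probe sets were chosen for the figure because they are highest on the array numbered 3 in both groups. The figure is therefore no support for that pattern. The highest value is 7499, for SOS1 33260_at.

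Of the brakes, CBL could hardly be measured and INPP5D was higher in resistant cells. CBL was not well above background on any sensitive array, at 82.3 to 453, and was above the limit on 1 of 5 resistant arrays, which ran from 152 to 520 (limma adjusted p = 0.69). For INPP5D the sensitive arrays read 4711, 5676, 3370, 4674 and 4388, and the resistant arrays 9657, 9868, 5922, 6122 and 10842. The groups did not overlap, but resistant replicates 3 and 4 lay only just above the highest sensitive array. The mean went from 4564 ± 826 to 8482 ± 2291 (SD, n = 5 each), a difference of 0.85 (SE 0.23), or 1.805-fold with an interval of 1.28 to 2.55 (limma adjusted p = 0.0424; two-sided exact permutation p = 0.00794). The call sits at the threshold. It was lost without any 1 of 8 arrays, at adjusted p-values of up to 0.107, and was 0.168 with arrays scaled to a common median.

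**Figure D4:**
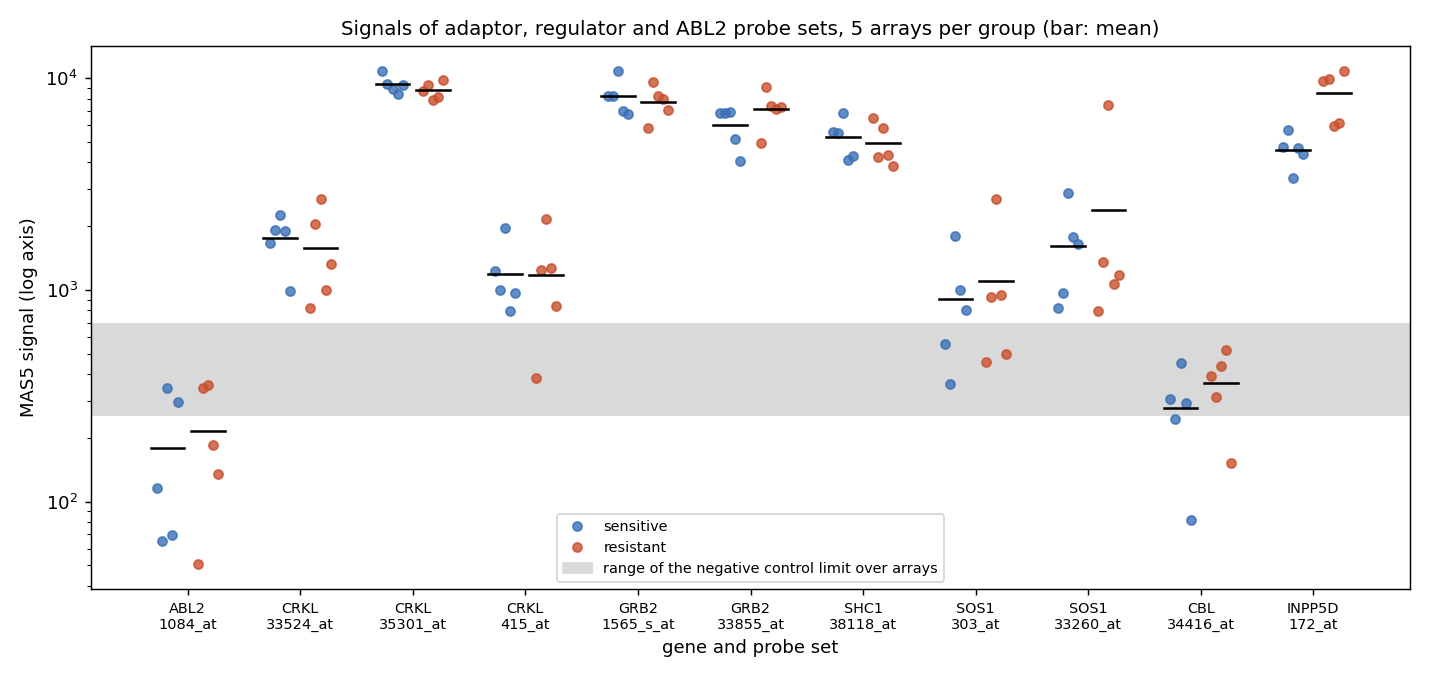
MAS5 signal on a log axis for the 11 probe sets of ABL2, the adaptors and the regulators, with a point for each array, a bar for each group mean and a grey band for the range of the negative control limit. INPP5D separates the groups, with resistant arrays at 5922 to 10842 and sensitive arrays at 3370 to 5676, and the others overlap.

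Taking the 10 probe sets of ABL2, CRKL, GRB2, SHC1, SOS1 and CBL, 0 were called by limma and 0 reached an unadjusted p under 0.05, with differences from -0.22 to 0.31 and a lowest adjusted p of 0.617. The lowest exact permutation p among them was 0.175. At 7.41% of all probe sets called, a count of 0 among 10, or among the 8 left without the barely measured ABL2 and CBL, is near the background.

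Other genes that act around the fusion kinase were taken from 5 lists with 54 genes, of which 38 had a probe set of their own symbol, and each gene was read by its brightest probe set on average. Of these, 2 rose and 2 fell (10.5%), where 8.4% of 8226 genes were called (4.94% higher and 3.46% lower), and the median difference was -0.16. NCK1 and VASP rose. NCK1, an SH2 and SH3 adaptor, went from 2518 ± 350 to 4190 ± 602 (difference 0.71, SE 0.17, limma adjusted p = 0.0273), without overlap of the groups, but its other probe set had a difference of 0.14 (adjusted p = 0.805). VASP, an actin regulator at adhesion sites, went from 746 ± 268 to 2017 ± 733 (difference 1.33, SE 0.31, adjusted p = 0.0189). Its sensitive replicate 3, at 289, was below the limit, and without that array the difference was 1.07 (limma adjusted p = 0.0219). With the median scaling the differences of NCK1 and VASP were 0.58 and 1.21 and both calls were lost, at adjusted p-values of 0.13 and 0.0639 (limma).

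PIK3CB and HRAS fell. PIK3CB, a catalytic subunit of PI3K, read 6714, 5915, 5683, 4889 and 8107 in sensitive arrays and 2785, 2975, 2502, 3036 and 4072 in resistant arrays. Its groups did not overlap, the difference was -0.998 (SE 0.196, limma adjusted p = 0.00748) and -1.31 in its other probe set (adjusted p = 0.00343), and it was called under all 18 alternatives run for it. HRAS, a RAS protein, went from 1736 ± 654 to 787 ± 76.9 (difference -0.96, SE 0.25, adjusted p = 0.0363), a call lost under 10 of 18 alternatives, 9 of them with 1 array left out. Its other probe set had a difference of -1.21 (adjusted p = 0.313).

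By list, 0 of 6 relatives of the members (among them ABR, CBLB, SOS2 and INPPL1), 2 of 13 docking and scaffold partners, 1 of 8 genes of the PI3K branch, 1 of 6 of the RAS-ERK branch and 0 of 5 tyrosine phosphatases were called. The remaining 16 listed genes were not analysed here, 6 of them of the RAS-ERK branch, so that branch is covered in part only. The docking protein DOK1, a direct substrate of the fusion kinase, was not called in its brightest probe set (5048 ± 1347 and 8060 ± 1627, limma adjusted p = 0.0923) and was called in 1 of its other 2, from 2992 ± 416 to 6878 ± 1592 (difference 1.16, adjusted p = 0.00262). Its relative DOK2 was just outside the threshold, at 1210 ± 551 and 2408 ± 270 without overlap (difference 1.04, adjusted p = 0.0519). With the mean of all probe sets of a gene, DOK1 (adjusted p = 0.00348) and DOK2 (0.0396) were called beside VASP and PIK3CB, and NCK1 and HRAS were not (limma). The phosphatase gene PTPN6 (SHP1) had a difference of -0.76 (adjusted p = 0.11).

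**Figure D5:**
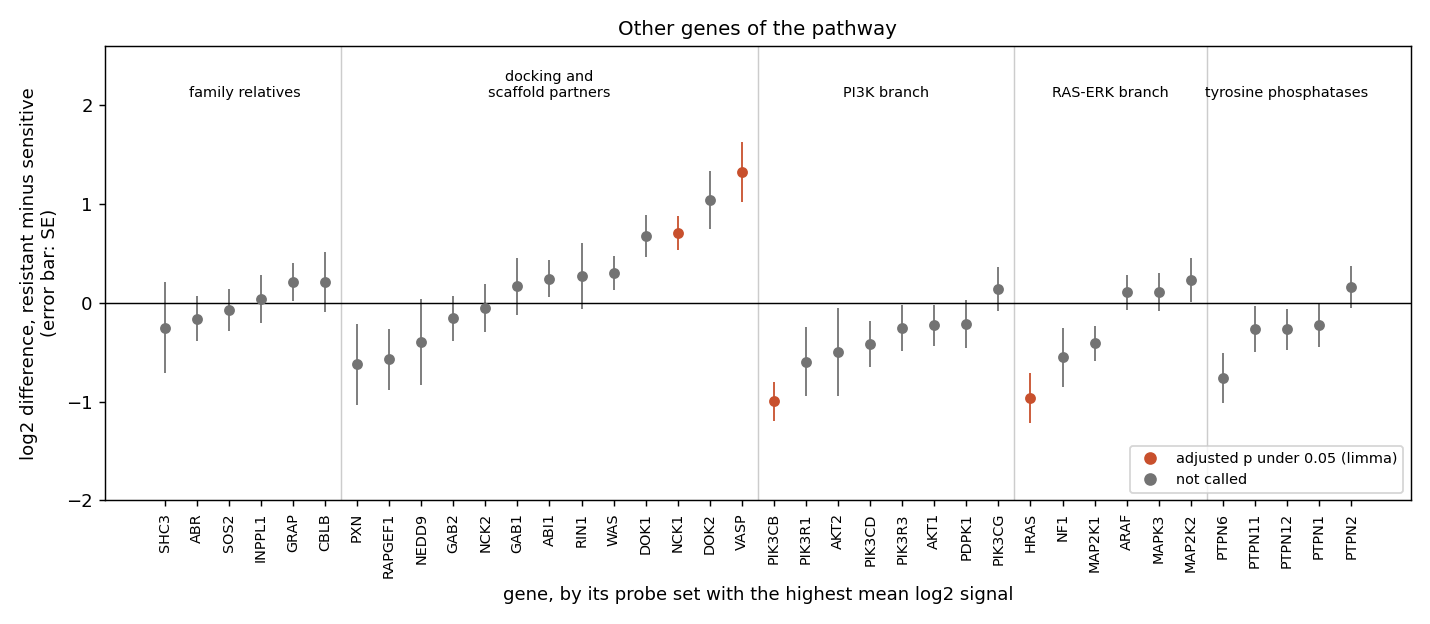
Log2 difference between resistant and sensitive arrays (vertical axis) with its SE for the 38 other pathway genes, each by 1 probe set, grouped by list and ordered by difference within a list. NCK1 and VASP are called higher and PIK3CB and HRAS lower, and the other 34 are not called.

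The genes most like ABL1, BCR and CRKL over the arrays were found by Pearson's r of log2 values over the 10 arrays, among 4562 probe sets of single other genes above the limit on all arrays. The r are the highest of many and are given as a description. They share the arrays and, for ABL1, the difference between the groups. For ABL1 39730_at these were TTC1 (r = 0.959), DPYSL2 (0.9497) and LAPTM5 (0.947), with differences of 0.64, 0.78 and 1.11, and r after subtracting the group means was 0.854, 0.818 and 0.794. For BCR 34679_at they were CDK17 (0.898), APBA3 (0.895) and THUMPD1 (0.885), with r of 0.866, 0.861 and 0.847 after subtracting the group means. For CRKL 35301_at they were HDAC6 (0.895), DCAF7 (0.873) and RBL2 (0.853), with r of 0.938, 0.873 and 0.860.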

How the data were processed

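The authors deposited 1 signal for each probe set on each array, a linear intensity made with MAS5, per the submitters' processing notes. Version, settings and scanner were not given in the sources used here. Each array had a 2% trimmed mean of 2501. Of 12625 probe sets, 67 controls were left out of the tests. Names came from the platform annotation, updated by Entrez identifier to GRCh38.p14 (10943 probe sets with 1 symbol, 545 with several, 1070 with none). Arrays were scaled to a common trimmed mean, and log2(signal + 114.8), the pseudocount being the 20th percentile of all signals, was fitted by group in limma 3.58.1 (lmFit, eBayes) under R 4.3.3, without covariates. Adjusted p-values are limma's unless named otherwise; exact permutation tests were two-sided and unadjusted. The fit was tested on simulated data. The number of arrays limits the precision. Named were all member probe sets, the called pathway genes, and the 3 genes most like ABL1, BCR and CRKL; DOK1, DOK2, PTPN6 and the neighbouring genes were chosen after their values were seen. Members and lists were chosen with earlier results of these data known. Alternatives were another pseudocount, scaling, dim-probe filter, variance model, replicate block, control limit, the mean of a gene's probe sets, and each array left out.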

Additional observations from a re-analysis of the deposited data

Results flagged for a closer look

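The SOS1 signal of probe set 33260_at on resistant replicate 3, 7499, lay far from the other 4 resistant arrays, which were between 791 and 1349. It was the only 1 of 46 sets of 5 arrays tested in this way on the log2 scale, and chance flags about 1 in 20 such sets. The other SOS1 probe set was also highest on that array, at 2681.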

How the results depend on the processing

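Against 4 member probe sets called, 0 were called with arrays scaled to a common median, 2 with a pseudocount of 1 and 2 with the replicate block. The count was 3 with quantile normalization and 5 with the pseudocount at the 50th percentile. It was also 5 without dim probe sets and 5 with a trended and robust variance. With 1 array left out it was 1 to 3. The lowest of these leave-out counts, 1, came without sensitive replicate 3 and without resistant replicate 2, and it was 2 without sensitive replicate 2, 4 or 5 or resistant replicate 1 or 5. The count without overlap was 4, and 1 with the median scaling and 4 to 6 with 1 array left out. Of the pathway genes, 4 were called, 2 with the median scaling, 2 with the replicate block, 7 with a trended and robust variance, and 2 to 6 with 1 array left out, with 2 at the lowest without sensitive replicate 2 or 3 or resistant replicate 2, 3 or 5. The ABL1 probe set 39730_at became called with the pseudocount at the 50th percentile, without dim probe sets and with the trended variance (lowest adjusted p = 0.0131, limma). BCR 537_f_at turned to -0.11 with the median scaling and -0.0906 with quantile normalization. With 1 array left out, values that were not called crossed 0 for BCR 1333_f_at (-0.0162 to 0.511) and 537_f_at (-0.0442 to 0.0715), CRKL 415_at (-0.36 to 0.18), GRB2 1565_s_at (-0.167 to 0.015), SHC1 38118_at (-0.196 to 0.007), SOS1 303_at (-0.21 to 0.42) and SOS1 33260_at (-0.41 to 0.36). The cause was not tested. Same-numbered arrays had a replicate number in common, and the labels do not say whether they were paired. The correlation of their deviations from the group means was 0.01 to 0.12. It was highest for the arrays numbered 3, at 0.12, and these were each other's best match. For each other number, at least 1 of the arrays correlated better with another number. Whether same-numbered arrays shared a batch was not tested. With the replicate block the calls of ABL1 1636_g_at (adjusted p = 0.0542), ABL1 2040_s_at (0.126), NCK1 (0.0888) and VASP (0.0593) were lost (limma). With the highest negative control as the limit, the share of probe sets above it still gave an exact permutation p of 0.563. ABL2, CBL and BCR 2043_s_at are limited by background.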

Other observations

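The genes next to ABL1, BCR and INPP5D in the gene order of GRCh38.p14 were read as a description, with no test, from the 10 nearest genes on each side whose probe set was above the limit on at least 5 arrays. A gene above the limit in 1 group only can pass this filter, among the neighbours and among all genes alike. Of all 5368 genes that passed it 11.3% were called, 6.33% as higher and 4.96% as lower. With 10 genes on a side, counts of 0 to 2 are too small to be told apart from these shares. After ABL1, on the side that the fusion takes along, 0 of 10 genes, NUP214 the nearest of them, were called by limma, and the median log2 difference was 0.05, with a range of -0.08 to 0.57. Before ABL1, 1 of 10 was called: ASS1, argininosuccinate synthase of arginine synthesis, had a log2 difference of 2.62 (adjusted p = 5.38e-05, limma), while the median was -0.18. Before BCR, on the side that stays joined to it in the fusion, 2 of 10 were called higher, the cancer-testis antigen PRAME (log2 difference 2.16, adjusted p = 0.00118) and a probe set of the light chain gene IGLC1 that matches a family of sequences (2.11, adjusted p = 0.00964), and the median was 0.25. After BCR, 1 of 10 was called, GUSBP11, a call lost under 7 of 18 alternatives, and the median was 0.02, with a range of -0.95 to 4.36. The upper end was IGLL1, a surrogate light chain gene, which had the largest difference of all these neighbours and was not called (adjusted p = 0.0701, limma). Next to INPP5D, 1 of 20 genes was called: the histone deacetylase HDAC4 had a log2 difference of -0.97 (adjusted p = 0.00309).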
